A study of Schizosaccharomyces pombe with 16 samples.

Results

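Starved fission yeast at 37 °C was compared with starved fission yeast at 26 °C in a pair of strains, on 4 of the 16 arrays of the series. The arrays were chosen by their titles: set 1, medium without nitrogen (-N), 1 array for each strain and temperature. The groups were fcp1-452 at 37 °C, WT at 37 °C, fcp1-452 at 26 °C and WT at 26 °C, and all 4 lacked nitrogen in the minimal medium EMM2. fcp1 encodes a phosphatase that acts on the tail of RNA polymerase II, fcp1-452 is a temperature-sensitive allele of it, and WT is strain L972, a heterothallic laboratory strain. In fcp1-452 the warm culture also puts a temperature-sensitive allele at the warm temperature, so heat and the loss of the allele's function cannot be told apart within that strain. The labels give no duration for the starvation or for the warm culture. The other 12 arrays held the same strains and temperatures with nitrogen (+N) and served for the spread and for comparison.

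A fission yeast cell without nitrogen leaves the cell cycle in G1. With a partner of the other mating type it mates and enters meiosis, and without one it becomes quiescent. The transcription factor Ste11 switches on the mating genes, which include mei2, whose RNA-binding product starts meiosis. Heat on its own is known to call up chaperones through the heat shock factor Hsf1 and general stress genes through the kinase Sty1 and the factor Atf1.

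The deposited values were ratios, each relative to the probe set's own median over the 8 arrays of its set, and are given here as log2. They compare arrays within a probe set and give no level that could be set against another gene. Each starved group had 1 array, so changes within a strain are differences of 1 array against 1. The mean change is the average of both strains' differences, ± SE from limma (R package for linear models), with p-values adjusted by Benjamini-Hochberg over 4999 probe sets and calls at an adjusted p under 0.05. The spread behind each SE came from the arrays with nitrogen, where 2 merged samples a group existed, and each starved array was assumed to vary like them. Nothing in the labels says that samples came from separate cultures, so these p-values measure a spread that may be technical. In bulk cultures fewer cells of a kind and less RNA per cell cannot be told apart.

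The starved strains differed in mating type markers before temperature was considered. map2, the P-factor precursor made by P cells, stood at 1.67 in fcp1-452 and 0.09 in WT at 37 °C, against 6.38 in fcp1-452 and -0.52 in WT at 26 °C. mam2, the P-factor receptor of M cells, stood at 0.02 in fcp1-452 and 1.17 in WT at 37 °C, against -0.42 in fcp1-452 and 4.40 in WT at 26 °C. mfm3, a gene of the M-factor pheromone of M cells, stood at 1.04 in fcp1-452 and 2.69 in WT at 37 °C, against 0.52 in fcp1-452 and 5.41 in WT at 26 °C. At 26 °C the P-cell marker map2 was thus high in fcp1-452 and the M-cell markers mam2 and mfm3 were high in WT. Over the 5 P-cell probe sets the median at 26 °C was 1.21 in fcp1-452 and 0.15 in WT. Over the 10 M-cell probe sets it was 0.42 in fcp1-452 and 3.39 in WT. The M-factor gene mfm1, given below, stood above its set median in fcp1-452 too, though lower than in WT. The labels give no mating type, so strain and mating type cannot be told apart in any difference between these strains. The targeted gene fcp1 lay at 0.17 in fcp1-452 and 0.48 in WT at 37 °C, against 0.34 in fcp1-452 and 0.52 in WT at 26 °C, a mean change of -0.10 ± 0.12, adjusted p = 0.505, which checks nothing about what the allele does.

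Across all probe sets the warm fcp1-452 array stood apart. Its log2 ratios had an SD of 1.08, against 0.748 for WT at 37 °C, 0.655 for fcp1-452 at 26 °C and 0.656 for WT at 26 °C. The change at 37 °C had an SD of 1.19 in fcp1-452 and 0.592 in WT, and the strains' changes correlated at r = 0.37 over 4999 probe sets, which share the array set and its medians. In fcp1-452, 1473 probe sets were called higher and 1372 lower, 29.5% and 27.4% of those tested and 56.9% in all. In WT, 112 were called higher and 43 lower, 2.24% and 0.86%, 3.1% in all. In the mean of both strains 1216 rose and 1090 fell, 24.3% and 21.8% of those tested. That count of 2306 was 809 without the replicate block, 407 with the 8 arrays of set 1 in a model with no joint term for strain, nitrogen and temperature, and 108 with the 4 starved arrays alone.

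The mean of both strains holds shared and unshared changes. Of the 2306 probe sets called in it, 1840 changed in the same direction in both strains. The change itself differed between the strains for 1703 probe sets, 34.1% of those tested, and for 1272 of the 2306 called in the mean. The shared changes were therefore taken from the arrays themselves: 114 probe sets were 2-fold or more higher at 37 °C in both strains and 44 were 2-fold or more lower in both, 2.28% and 0.88% of 4999, or 3.16% together. They are called shared rises and shared falls here, and "rose" and "fell" refer to the mean of both strains unless a strain is named. The 114 made up 11.9% of the 954 probe sets that were 2-fold higher in fcp1-452 and 55.9% of the 204 in WT, where 2-fold higher probe sets were 19.1% of all in fcp1-452 and 4.08% in WT. The 44 were 5.14% of the 856 that were 2-fold lower in fcp1-452 and 52.4% of the 84 in WT, where 2-fold lower ones were 17.1% of all in fcp1-452 and 1.68% in WT. Another 15 probe sets moved 2-fold in opposite directions. Just inside the 2-fold limit lay wtf9 with 1.18 in fcp1-452 and 1.01 in WT, and just outside it gal1 with 0.98 in fcp1-452 and 1.36 in WT. After quantile normalization 533 probe sets were 2-fold higher and 554 lower in fcp1-452, and 169 and 114 in WT. In both strains 104 were then 2-fold higher and 43 lower.

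**Figure D1:**
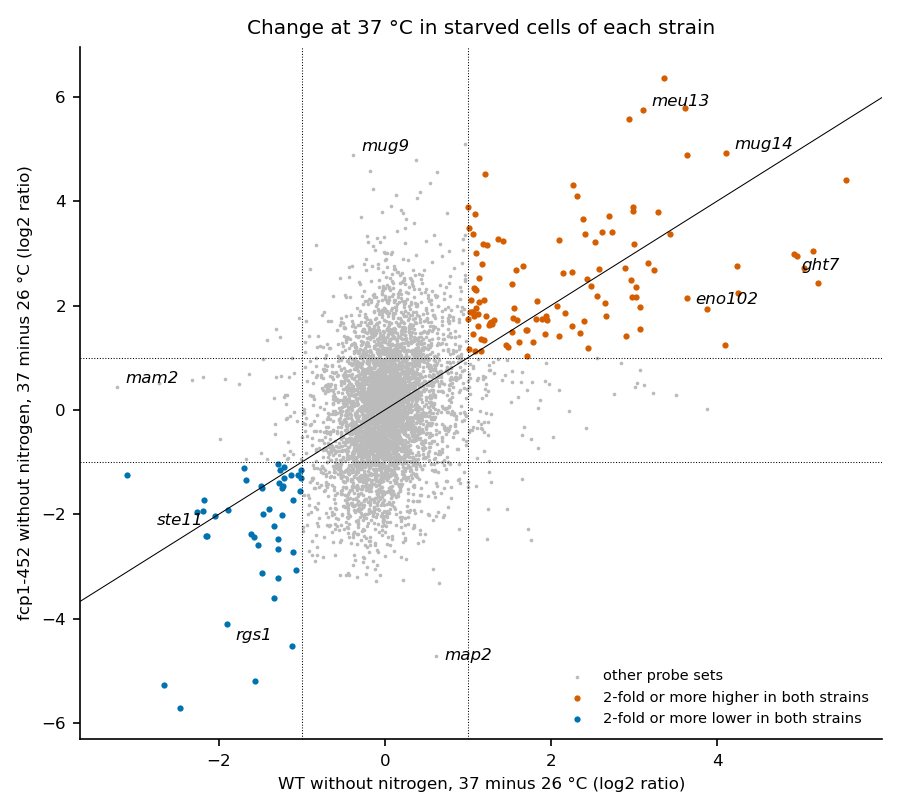
Change at 37 °C in starved cells, with each point 1 of 4999 probe sets, the WT difference on the horizontal axis and the fcp1-452 difference on the vertical axis (both log2 ratio, 37 minus 26 °C, 1 array against 1). Dotted lines mark 2-fold and the solid line equal change; the 114 probe sets higher in both strains and the 44 lower in both are coloured, and map2, mam2 and mug9 lie near 0 in the other strain.

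Of the 158 shared probe sets, 48 of the higher and 20 of the lower ones carried 1 gene name, and 90 stayed unnamed here. The mean change was called for 156 of the 158, beside 46.1% of all probe sets. It was called for 120 of them without the replicate block and for 94 with the 4 starved arrays alone. The same values chose the 158, so these counts support nothing. Their change differed between the strains in size for 33, beside 34.1% of all probe sets whose change differed. The plot of the leading shared genes gives the 4 arrays of each.

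Genes of meiotic chromosomes stood high among the shared rises. meu13, whose product helps homologous chromosomes pair in meiosis, stood at 3.13 in fcp1-452 and 0.50 in WT at 37 °C, against -2.61 in fcp1-452 and -2.61 in WT at 26 °C (mean change 4.42 ± 0.47, adjusted p = 0.0019). hop1, a protein of the meiotic chromosome axis, stood at 1.90 in fcp1-452 and 0.50 in WT at 37 °C, against -2.19 in fcp1-452 and -1.81 in WT at 26 °C (3.20 ± 0.33, adjusted p = 0.00184). Both warm arrays lay above both cool arrays for these genes, with fcp1-452 the higher of the warm pair. The forkhead factor gene mei4, which switches on middle meiotic genes, stood at 3.52 in fcp1-452 and 1.68 in WT at 37 °C, against 0.34 in fcp1-452 and 0.49 in WT at 26 °C (2.18 ± 0.18, adjusted p = 0.00114). atf21, a bZIP factor gene of meiosis, stood at 4.37 in fcp1-452 and 1.20 in WT at 37 °C, against -0.14 in fcp1-452 and -0.01 in WT at 26 °C, and its change of 4.51 in fcp1-452 and 1.21 in WT differed between the strains (adjusted p = 0.00426). rec15, needed for meiotic recombination, changed by 1.73 in fcp1-452 and 1.95 in WT (1.84 ± 0.37, adjusted p = 0.0113), and bqt1, which ties telomeres to the spindle pole body in meiosis, by 2.80 in fcp1-452 and 1.16 in WT (1.98 ± 0.45, adjusted p = 0.0161).

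The list of meiotic recombination and pairing genes held 33 probe sets, of which 11 rose and 6 fell in the mean, 33.3% and 18.2% beside 24.3% and 21.8% of all probe sets. Its median change was 0.31, beside 0.03 over all 4999. The members went both ways. rec10, a component of the linear elements along meiotic chromosomes, stood at -0.08 in fcp1-452 and 1.45 in WT at 37 °C, against 1.92 in fcp1-452 and 2.06 in WT at 26 °C and fell (-1.31 ± 0.36, adjusted p = 0.0294). sgo1, the meiotic protector of centromeric cohesion, fell too (-1.25 ± 0.22, adjusted p = 0.00692), as did mei2. mcp7, a partner of meu13, changed by 3.04 in fcp1-452 and 0.77 in WT and rose in the mean (1.90 ± 0.25, adjusted p = 0.00296), while dmc1, the meiotic strand exchange protein, did not pass the test (0.18 ± 0.16, adjusted p = 0.384). Genes named mug or meu, for their rise during meiosis, numbered 109 probe sets. Of these 44 rose and 13 fell, 40.4% and 11.9% beside 24.3% and 21.8% of all probe sets, with a median of 0.51 in fcp1-452 and 0.23 in WT. mug14 had the largest mean change of any named shared gene and stood at 4.70 in fcp1-452 and 4.21 in WT at 37 °C, against -0.22 in fcp1-452 and 0.11 in WT at 26 °C (4.51 ± 0.60, adjusted p = 0.00319).

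Of 8 hexose transporter probe sets 2 were shared rises, beside 2.28% of all probe sets. So were 1 of 4 of galactose use and 1 of 22 of glycolysis and gluconeogenesis, each a single probe set. ght7, of the hexose transporter family, stood at 3.06 in fcp1-452 and 5.53 in WT at 37 °C, against 0.62 in fcp1-452 and 0.31 in WT at 26 °C (3.83 ± 0.21, adjusted p = 0.00064). ght3, of the same family, stood at 3.59 in fcp1-452 and 2.97 in WT at 37 °C, against -0.30 in fcp1-452 and -0.01 in WT at 26 °C (3.43 ± 0.27, adjusted p = 0.00108). For ght3 the warm arrays lay close together, whereas for ght7 the WT array was far higher, and the ght7 change differed between the strains by -2.78 (adjusted p = 0.00807). Of the 8 hexose transporter probe sets, 4 rose and 0 fell, 50% and 0% beside 24.3% and 21.8% of all probe sets. ght6 changed by 2.18 in fcp1-452 and 0.78 in WT (1.48 ± 0.14, adjusted p = 0.0014) and ght4 by 0.83 in fcp1-452 and 1.07 in WT (0.95 ± 0.22, adjusted p = 0.0162). ght5, a high-affinity glucose transporter, did not pass the test (0.21 ± 0.35, adjusted p = 0.65), nor did ght8 (-0.27 ± 0.10, adjusted p = 0.0817), which stood at 1.43 in fcp1-452 and -0.42 in WT at 37 °C, against 0.81 in fcp1-452 and 0.73 in WT at 26 °C.

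The epimerase gene gal10 of galactose use stood at 2.61 in fcp1-452 and 3.31 in WT at 37 °C, against -0.08 in fcp1-452 and 0.07 in WT at 26 °C (2.96 ± 0.22, adjusted p = 0.00107). gal1, the galactokinase gene, rose by 1.17 ± 0.28, adjusted p = 0.0185 and gal7, the uridylyltransferase gene, by 0.76 ± 0.20, adjusted p = 0.0286. All 3 were higher at 37 °C in both strains, while the α-galactosidase gene mel1 gave -2.04 in fcp1-452 and 0.00 in WT and did not pass the test. inv1, which encodes the secreted invertase that splits sucrose, stood at 2.40 in fcp1-452 and 1.60 in WT at 37 °C, against -0.81 in fcp1-452 and -0.93 in WT at 26 °C (2.87 ± 0.51, adjusted p = 0.00747). eno102, a gene of the glycolytic enzyme enolase, stood at 2.59 in fcp1-452 and 4.80 in WT at 37 °C, against 0.44 in fcp1-452 and 1.16 in WT at 26 °C (2.89 ± 0.13, adjusted p = 0.000346). It rose more in WT, by 3.63 against 2.14 in fcp1-452. The 22 glycolysis and gluconeogenesis probe sets as a whole had a median of -0.18. Of them 3 rose and 4 fell, 13.6% and 18.2% beside 24.3% and 21.8% of all probe sets.

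**Figure D2:**
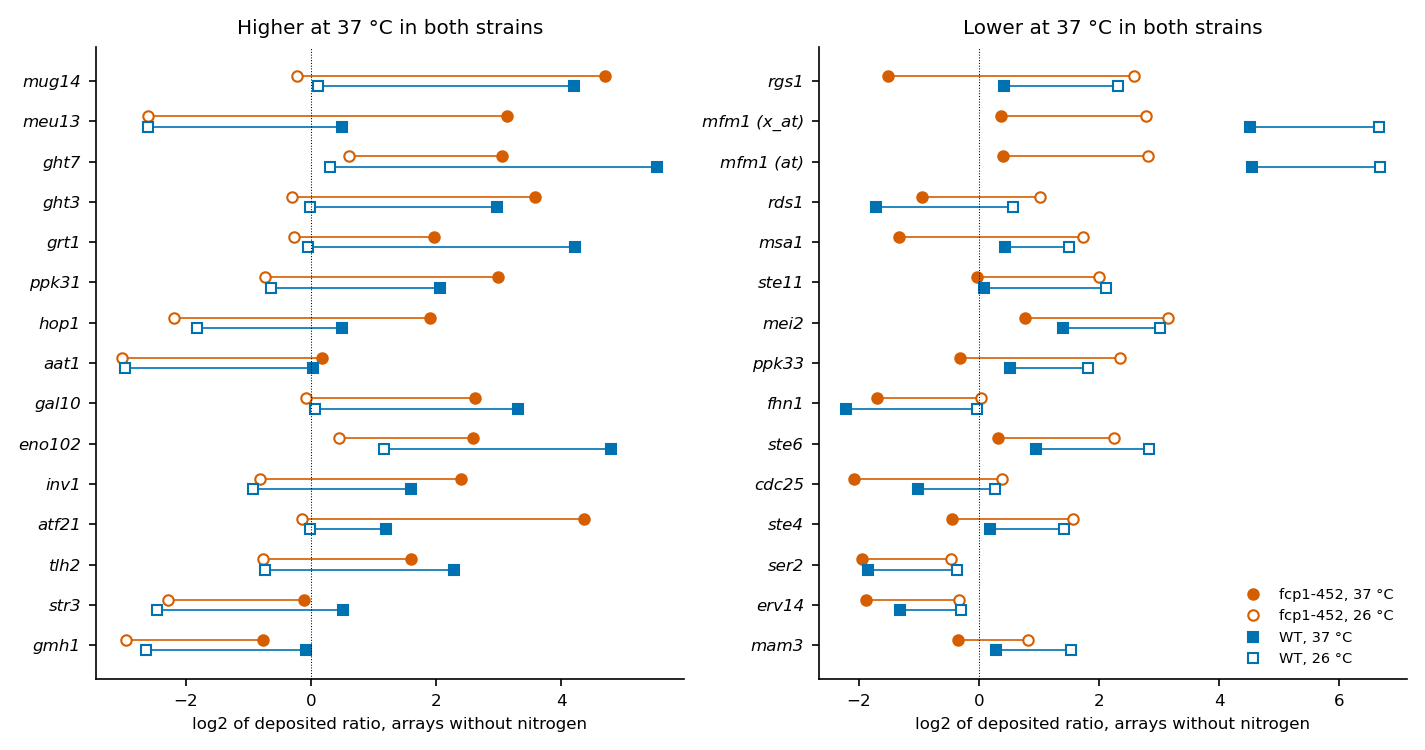
The 15 highest (left) and 15 lowest (right) named probe sets by mean change among those 2-fold or more changed in both strains and called. Points give the log2 ratio on each of the 4 starved arrays, fcp1-452 as circles and WT as squares, filled at 37 °C and open at 26 °C, joined within a strain; every filled point lies on the same side of its open partner.

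Some transporter genes and other genes of the cell surface were shared rises, while the lists nearest to them went both ways. Of 25 cell wall and cell surface probe sets 5 rose and 5 fell, with 1 shared rise and 1 shared fall. Of 27 of nitrogen source uptake and use 5 rose and 5 fell, with 2 shared rises and 0 shared falls. Over all probe sets 24.3% rose and 21.8% fell, while 2.28% were shared rises and 0.88% shared falls. aat1, an amino acid transporter gene, stood at 0.17 in fcp1-452 and 0.04 in WT at 37 °C, against -3.01 in fcp1-452 and -2.97 in WT at 26 °C (3.09 ± 0.23, adjusted p = 0.00107), with the strains side by side at either temperature. The ammonium transporter gene amt3 stood at 1.11 in fcp1-452 and 1.77 in WT at 37 °C, against -0.36 in fcp1-452 and -0.16 in WT at 26 °C (1.70 ± 0.28, adjusted p = 0.00593). pma2, a proton ATPase gene of the plasma membrane, changed by 1.55 in fcp1-452 and 3.07 in WT (2.31 ± 0.33, adjusted p = 0.00376), and cta3, a cation ATPase gene, by 3.38 in fcp1-452 and 1.06 in WT (2.22 ± 0.10, adjusted p = 0.000342). Both of these were higher in both strains, pma2 with the larger change in WT and cta3 with the larger change in fcp1-452. gmh1, of the galactosyltransferases that extend surface glycans, stood at -0.77 in fcp1-452 and -0.08 in WT at 37 °C, against -2.95 in fcp1-452 and -2.63 in WT at 26 °C (2.37 ± 0.18, adjusted p = 0.00107). The protein kinase gene ppk31 changed by 3.71 in fcp1-452 and 2.70 in WT (3.21 ± 0.17, adjusted p = 0.00064).

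A pair of iron genes belonged to the shared rises. str3, of the siderophore and heme transporter family, stood at -0.11 in fcp1-452 and 0.52 in WT at 37 °C, against -2.28 in fcp1-452 and -2.46 in WT at 26 °C (2.57 ± 0.71, adjusted p = 0.0304). It was no longer called without the replicate block (adjusted p = 0.0646) or after quantile normalization (adjusted p = 0.0911). frp1, a ferric reductase gene, stood at 0.14 in fcp1-452 and -0.16 in WT at 37 °C, against -1.80 in fcp1-452 and -1.72 in WT at 26 °C (1.75 ± 0.10, adjusted p = 0.000706). Of the 23 iron and copper probe sets, 5 rose and 2 fell, 21.7% and 8.7% beside 24.3% and 21.8% of all probe sets. Other iron uptake genes did not pass the test: fio1 changed by 0.43 ± 0.55, adjusted p = 0.548, and the iron permease gene fip1 by -0.29 ± 0.47, adjusted p = 0.633.

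Histone genes rose at 37 °C without nitrogen. The list held 14 probe sets of 11 genes with the variants included, and 11 rose while 0 fell, 78.6% against 24.3% of all probe sets. The median was 1.03 in fcp1-452 and 0.57 in WT. hhf1, a histone H4 gene, stood at 0.51 in fcp1-452 and 0.19 in WT at 37 °C, against -1.13 in fcp1-452 and -1.10 in WT at 26 °C (1.47 ± 0.21, adjusted p = 0.00408). pht1, which encodes the variant H2A.Z, stood at 2.25 in fcp1-452 and 0.22 in WT at 37 °C, against -0.75 in fcp1-452 and -0.88 in WT at 26 °C (2.05 ± 0.23, adjusted p = 0.00216). cnp1, the centromeric histone H3 variant, stood at 0.11 in fcp1-452 and 0.12 in WT at 37 °C, against -1.65 in fcp1-452 and -1.42 in WT at 26 °C (1.65 ± 0.22, adjusted p = 0.00318). For these 3 genes both warm arrays lay above both cool arrays, and pht1 alone of them differed between the strains (adjusted p = 0.0265). The other histone H4 gene hhf3 did not pass the test (0.23 ± 0.21, adjusted p = 0.394). Copies of histone genes are nearly alike in sequence and their probe sets may share signal. Without the replicate block 6 of the 14 were called higher and 0 lower, and with the 4 starved arrays alone 1 higher. Over all 4999 probe sets 406 were called higher and 403 lower in the first of these fits, and 85 and 23 in the second.

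The direction of the histone genes differed with nitrogen. With nitrogen their median change at 37 °C was -1.30 in fcp1-452 and -0.39 in WT, and 12 of the 14 fell, beside 17.6% of all probe sets. The change without nitrogen minus the change with nitrogen was called above 0 for 13 of 14, where 19.3% of all probe sets were called so. On the set 1 arrays with nitrogen hhf1 stood at -1.80 in fcp1-452 and -0.22 in WT at 37 °C, against 0.46 in fcp1-452 and 0.45 in WT at 26 °C. Targets of the G1/S factor MBF had medians without nitrogen of 0.51 in fcp1-452 and 0.30 in WT, against medians with nitrogen of -0.75 in fcp1-452 and -0.07 in WT. Of these 27 probe sets 10 rose and 4 fell when starved, 37% and 14.8% beside 24.3% and 21.8% of all probe sets. DNA replication genes did not move with them in these counts: 4 of 46 rose and 17 fell, 8.7% and 37%. Their median was -0.49 in fcp1-452 and -0.03 in WT. Without the replicate block 1 of the MBF targets rose and 2 fell, and 2 of the replication probe sets rose and 1 fell. Over all 4999 probe sets 406 rose and 403 fell in that fit, so the contrast in counts depends on the block.

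Genes of mating fell in the mean of both strains. The mating and Ste11 list held 38 probe sets, of which 3 rose and 21 fell, 55.3% against 21.8% of all probe sets. Its median change was -1.0 in fcp1-452 and -0.63 in WT. In both strains 9 of its probe sets were 2-fold or more lower, beside 0.88% of all probe sets. The count of members that fell was 15 without the replicate block and 7 with the 4 starved arrays alone, with 1 and 0 that rose. Over all 4999 probe sets 403 fell and 406 rose in the first of these fits, and 23 fell and 85 rose in the second. ste11 itself, the HMG-box factor gene that switches on mating genes, stood at -0.03 in fcp1-452 and 0.08 in WT at 37 °C, against 2.01 in fcp1-452 and 2.12 in WT at 26 °C (-2.04 ± 0.15, adjusted p = 0.00107). The strains lay together at 37 °C and again at 26 °C, and the groups did not overlap. mei2 stood at 0.77 in fcp1-452 and 1.40 in WT at 37 °C, against 3.14 in fcp1-452 and 3.01 in WT at 26 °C (-1.99 ± 0.14, adjusted p = 0.00107). On the set 1 arrays with nitrogen mei2 lay between -2.01 and -1.78 at both temperatures, so the warm starved arrays were intermediate.

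The genes that carry the pheromone signal fell too. rgs1, which encodes the regulator that switches off the pheromone G protein, stood at -1.51 in fcp1-452 and 0.41 in WT at 37 °C, against 2.59 in fcp1-452 and 2.32 in WT at 26 °C (-3.0 ± 0.11, adjusted p = 0.000321). It fell more in fcp1-452, with a difference of -2.19 between the strains (adjusted p = 0.00429). On the set 1 arrays with nitrogen rgs1 lay between -0.38 and 0.23, above the warm starved fcp1-452 array. ste6, the exchange factor gene of the GTPase Ras1, stood at 0.32 in fcp1-452 and 0.96 in WT at 37 °C, against 2.24 in fcp1-452 and 2.84 in WT at 26 °C (-1.91 ± 0.19, adjusted p = 0.00175). ste4, an adaptor of the MAP kinase kinase kinase Byr2, changed by -2.02 in fcp1-452 and -1.24 in WT (-1.63 ± 0.25, adjusted p = 0.00494). gpa1, the G protein subunit itself, changed by -2.21 in fcp1-452 and -0.70 in WT (-1.45 ± 0.17, adjusted p = 0.00227), and the MAP kinase kinase gene byr1 by -1.78 in fcp1-452 and -0.60 in WT (-1.19 ± 0.11, adjusted p = 0.00138). The MAP kinase gene spk1 was lower in both strains, by -1.96 in fcp1-452 and -0.90 in WT, without passing the test (-1.43 ± 0.63, adjusted p = 0.111).

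The pheromone and receptor genes differed by strain. mfm1, an M-factor gene, stood at 0.40 in fcp1-452 and 4.54 in WT at 37 °C, against 2.81 in fcp1-452 and 6.68 in WT at 26 °C (-2.27 ± 0.39, adjusted p = 0.00675), with both arrays of WT above both arrays of fcp1-452. Its other probe set, which can also match related genes, gave -2.28 ± 0.40, adjusted p = 0.00714. mfm3 fell in WT by -2.72, against a change of 0.52 in fcp1-452. The receptor gene mam2 fell in WT by -3.23, against 0.44 in fcp1-452, where it was low at both temperatures. map2 changed by -4.71 in fcp1-452 and 0.61 in WT, and map3, the M-factor receptor gene of P cells, by -2.71 in fcp1-452 and 0.11 in WT. map2 and map3 were called lower in fcp1-452 and mfm3 and mam2 in WT, each in the strain where it stood higher at 26 °C. mam3, the M-cell agglutinin gene, was lower in both, by -1.16 in fcp1-452 and -1.26 in WT (-1.21 ± 0.17, adjusted p = 0.00351), and was not called without the replicate block (adjusted p = 0.142) or on the 4 starved arrays alone (adjusted p = 0.304).

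A few members of the mating list rose, with a change called in fcp1-452 and not in WT. rst2, a zinc finger factor gene that acts upstream of ste11, stood at 2.41 in fcp1-452 and 0.94 in WT at 37 °C, against 0.43 in fcp1-452 and 0.30 in WT at 26 °C (1.31 ± 0.16, adjusted p = 0.00249). esc1, a helix-loop-helix factor gene, changed by 2.22 in fcp1-452 and 0.16 in WT (1.19 ± 0.19, adjusted p = 0.00553), and rsv1, a zinc finger gene needed in stationary phase, by 2.38 in fcp1-452 and -0.03 in WT (1.18 ± 0.13, adjusted p = 0.00215). The change of each of the 3 differed between the strains, with adjusted p = 0.0236 for rst2, 0.0133 for esc1 and 0.00436 for rsv1.

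Further genes were shared falls. cdc25, the phosphatase gene that activates the cyclin-dependent kinase Cdc2 at mitosis, stood at -2.08 in fcp1-452 and -1.02 in WT at 37 °C, against 0.39 in fcp1-452 and 0.27 in WT at 26 °C (-1.88 ± 0.13, adjusted p = 0.00107). msa1, an RNA-binding protein gene, stood at -1.33 in fcp1-452 and 0.43 in WT at 37 °C, against 1.74 in fcp1-452 and 1.5 in WT at 26 °C (-2.07 ± 0.15, adjusted p = 0.00107), and the kinase gene ppk33 stood at -0.31 in fcp1-452 and 0.52 in WT at 37 °C, against 2.35 in fcp1-452 and 1.81 in WT at 26 °C (-1.98 ± 0.17, adjusted p = 0.00124). All 3 fell more in fcp1-452, with differences between the strains of -1.18, -1.99 and -1.37. ser2, the phosphoserine phosphatase gene of serine synthesis, changed by the same amount in both strains, -1.49 in fcp1-452 and -1.48 in WT (-1.49 ± 0.18, adjusted p = 0.00262). fhn1, a gene of membrane furrows called eisosomes, changed by -1.73 in fcp1-452 and -2.18 in WT (-1.96 ± 0.37, adjusted p = 0.00879), and rds1 by -1.96 in fcp1-452 and -2.27 in WT (-2.11 ± 0.67, adjusted p = 0.0458). Without the replicate block fhn1 (adjusted p = 0.455), rds1 (adjusted p = 0.09) and ser2 (adjusted p = 0.0762) were not called. erv14, a cargo receptor gene of the secretory pathway, changed by -1.55 in fcp1-452 and -1.02 in WT (-1.29 ± 0.27, adjusted p = 0.0133), and ada2, of the SAGA coactivator, by -1.24 in fcp1-452 and -1.14 in WT (-1.19 ± 0.13, adjusted p = 0.00203).

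Of 18 heat shock and chaperone probe sets 1 rose and 3 fell at 37 °C in the mean of starved cells, 5.56% and 16.7% beside 24.3% and 21.8% of all probe sets. No member was a shared rise or fall, beside 3.16% of all probe sets. The median change was 0.43 in fcp1-452, where 13 of 18 lay above 0, and -0.36 in WT, where 2 of 18 did. After quantile normalization the median was 0.12 in fcp1-452 and -0.38 in WT, so the size of the fcp1-452 median depends on the normalization. hsp16, a gene of a small heat shock protein, stood at 2.91 in fcp1-452 and -0.12 in WT at 37 °C, against 0.11 in fcp1-452 and 0.13 in WT at 26 °C and did not pass the test (1.27 ± 0.69, adjusted p = 0.18). Only the warm fcp1-452 array was high. ssa1, an Hsp70 gene, stood at 1.12 in fcp1-452 and -1.10 in WT at 37 °C, against 0.62 in fcp1-452 and 0.65 in WT at 26 °C (-0.62 ± 0.62, adjusted p = 0.441), low on the warm WT array. The related Hsp70 gene ssa2 stood at -0.60 in fcp1-452 and -1.27 in WT at 37 °C, against 0.23 in fcp1-452 and 0.23 in WT at 26 °C and fell (-1.16 ± 0.22, adjusted p = 0.00866).

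The Hsp40 gene psi1 stood at 0.33 in fcp1-452 and -1.97 in WT at 37 °C, against -0.36 in fcp1-452 and -0.33 in WT at 26 °C, and the Hsp90 cochaperone gene sti1 at 0.00 in fcp1-452 and -1.42 in WT at 37 °C, against -0.28 in fcp1-452 and -0.22 in WT at 26 °C. Neither passed the test, with adjusted p = 0.307 for psi1 and 0.265 for sti1, and in both the warm WT array was the lowest. hsp10, a mitochondrial chaperonin gene, was the member that rose (0.62 ± 0.11, adjusted p = 0.00725), with 1.40 in fcp1-452 and -0.16 in WT. Its change differed between the strains (adjusted p = 0.00694), as did that of wos2, a p23 cochaperone gene (1.15 in fcp1-452 and -0.48 in WT, adjusted p = 0.0178). With nitrogen, where 39.9% of probe sets were called in fcp1-452, hsp16 changed by 4.70 in fcp1-452 and 2.18 in WT, and the difference from the starved change did not pass the test (adjusted p = 0.0938). ssa1 and ssa2 are close relatives whose probe sets may share signal. The 40 probe sets of the Sty1 and Atf1 stress pathway had medians of 0.26 in fcp1-452 and -0.09 in WT, with 9 that rose and 3 that fell, 22.5% and 7.5%. After quantile normalization their medians were -0.02 in fcp1-452 and -0.18 in WT.

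**Figure D3:**
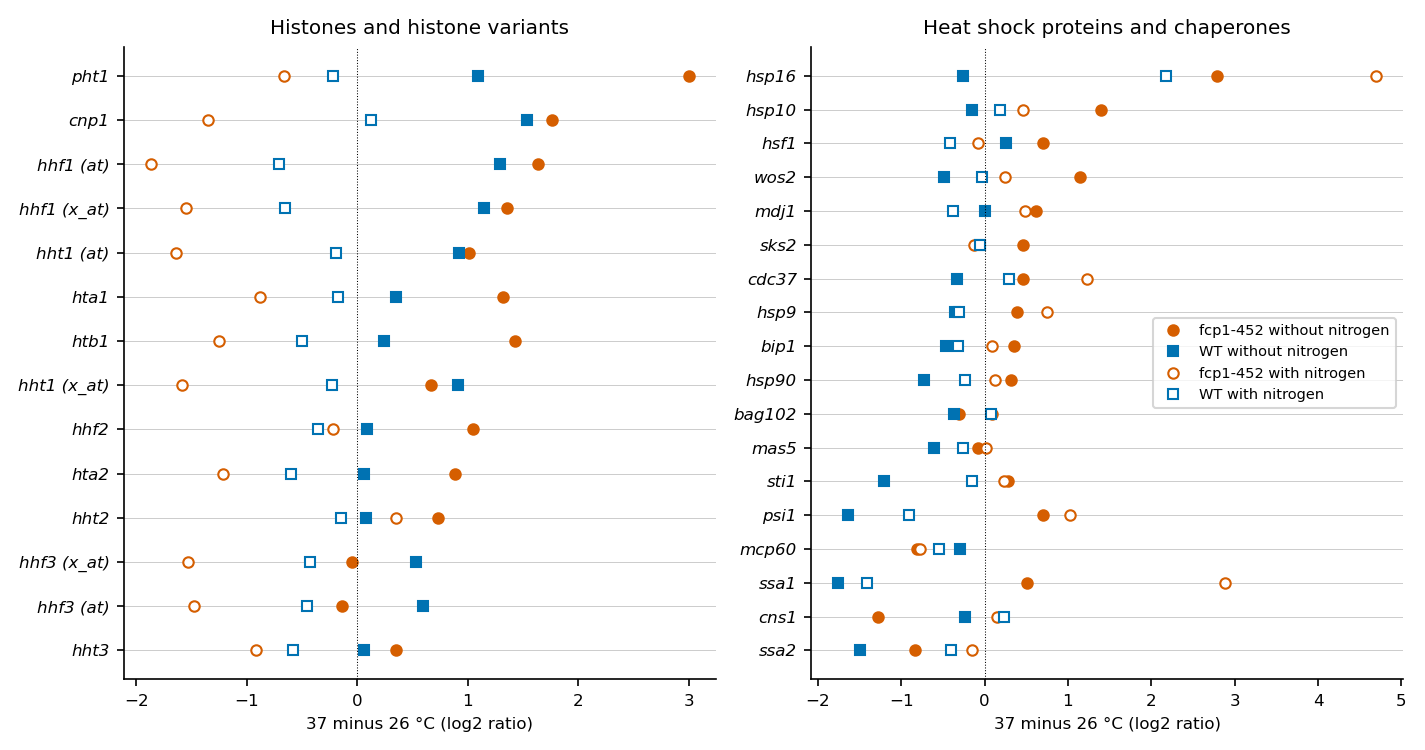
Change at 37 °C (log2 ratio, 37 minus 26 °C) of each histone probe set (left, 14) and each heat shock or chaperone probe set (right, 18), fcp1-452 as circles and WT as squares, filled without nitrogen and open with nitrogen. Most histone probe sets lie right of 0 without nitrogen and left of 0 with it, and most chaperone probe sets of starved WT lie left of 0.

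Several lists moved in fcp1-452 with a WT median near 0. Spliceosome genes had a median of 0.66 in fcp1-452 and 0.05 in WT. Of their 79 probe sets 35 rose and 8 fell in the mean, 44.3% and 10.1% beside 24.3% and 21.8% of all probe sets. The change was more positive in fcp1-452 for 29 and more negative for 4, beside 17.1% and 16.9% of all probe sets. Without the replicate block these strain differences were called for 4 and 0, beside 96 and 129 of all 4999 probe sets. prp17 was a shared rise (1.34 in fcp1-452 and 1.20 in WT). Proteasome genes had medians of 0.58 in fcp1-452 and -0.01 in WT, with 20 of 35 called higher and 4 lower in fcp1-452, beside 29.5% and 27.4% of all probe sets. In WT 0 were called, where 3.1% of all probe sets were. Genes of TOR, PKA and nutrient signalling had medians of 0.72 in fcp1-452 and -0.01 in WT. Of these 42 probe sets 21 rose and 8 fell, 50% and 19%, of which the second is near the share of all probe sets. After quantile normalization the fcp1-452 medians were smaller, 0.48 for the spliceosome, 0.30 for the proteasome and 0.36 for the signalling list. The WT medians were then 0.02, -0.02 and -0.05. The counts that rose were 13 for the spliceosome, 5 for the proteasome and 5 for the signalling list without the replicate block. Over all 4999 probe sets 406 rose in that fit.

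Ribosomal protein genes had small changes. Their 120 probe sets had medians of 0.17 in fcp1-452 and 0.14 in WT, with 24 that rose and 11 that fell, 20% and 9.17%, both under the shares of all probe sets. Without the replicate block 1 rose and 1 fell, beside 406 and 403 of all 4999 probe sets. Genes of ribosome biogenesis and RNA polymerase I had medians of 0.46 in fcp1-452 and -0.15 in WT, and of 0.28 and -0.16 after quantile normalization. Respiratory chain and ATP synthase genes had 5 of 47 that rose and 13 that fell, 10.6% and 27.7%. Those that fell furthest made or carried coenzyme Q, with ppt1 at -1.28 ± 0.10, adjusted p = 0.00107, coq9 at -1.06 ± 0.13, adjusted p = 0.00275 and coq6 at -1.05 ± 0.13, adjusted p = 0.0028, and the change was more negative in fcp1-452 for all 3 (adjusted p = 0.00426, 0.0057 and 0.0113). Amino acid biosynthesis genes had 12 of 50 that rose and 10 that fell, 24% and 20%, near the shares of all probe sets. sam1, the S-adenosylmethionine synthetase gene, was 2-fold higher in both strains (1.81 in fcp1-452 and 1.07 in WT), and ser2 2-fold lower.

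Other lists gave the following counts, to be read against the 24.3% of all probe sets that rose and the 21.8% that fell. Of 31 probe sets of the RNA polymerase II tail and elongation, the list nearest to the function of fcp1, 13 rose and 5 fell, 41.9% and 16.1%, with medians of 0.74 in fcp1-452 and 0.15 in WT. After quantile normalization these medians were 0.26 in fcp1-452 and 0.10 in WT. Autophagy genes had 9 of 22 that rose and 4 that fell, 40.9% and 18.2%. Genes of sporulation and meiotic divisions had 13 of 37 that rose and 4 that fell, 35.1% and 10.8%. Phosphate and thiamine genes had 0 of 12 that rose and 5 that fell, the second of these 41.7%, with medians of -0.80 in fcp1-452 and 0.04 in WT. Their medians after quantile normalization were -0.49 in fcp1-452 and 0.02 in WT. Without the replicate block 2 rose and 2 fell in the polymerase list, and 5 rose and 1 fell in autophagy. In sporulation 6 rose and 1 fell in that fit, and in the phosphate and thiamine list 0 rose and 3 fell. Over all 4999 probe sets 406 rose and 403 fell in it.

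**Figure D4:**
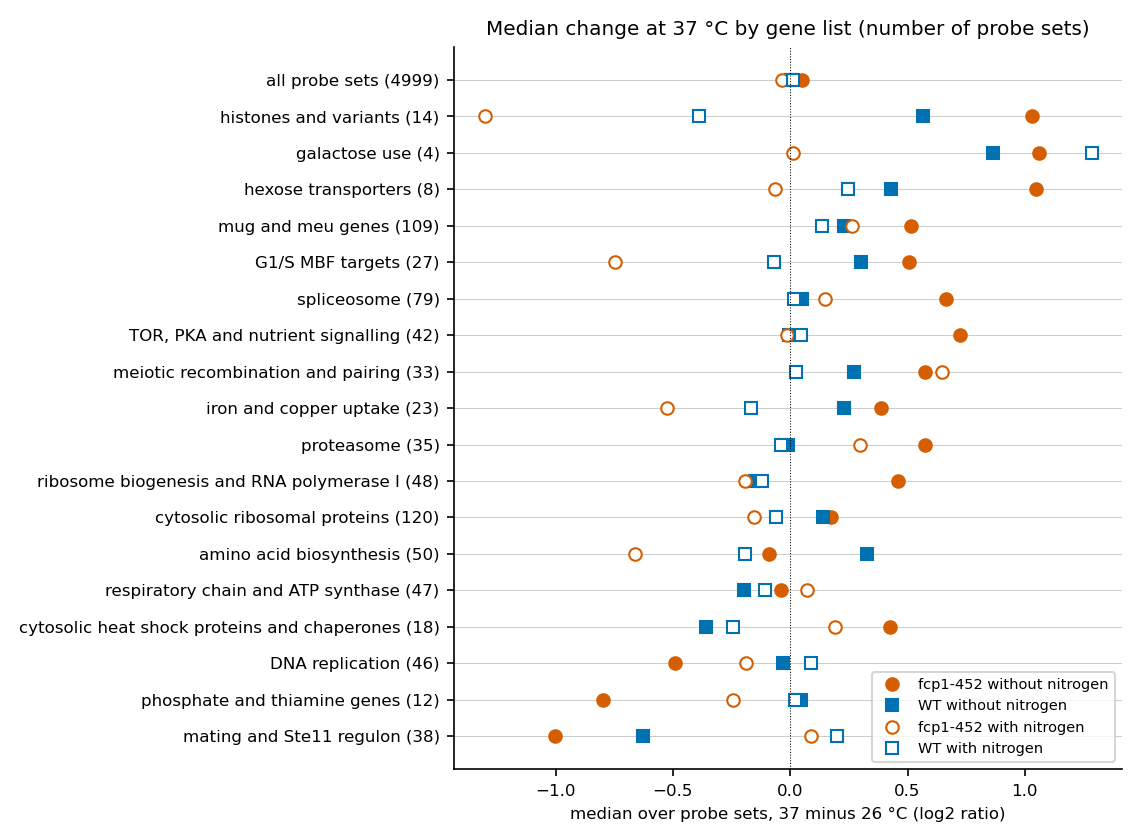
Median change at 37 °C (log2 ratio, 37 minus 26 °C) over all probe sets and over 18 of the 37 gene lists, with the number of probe sets in brackets, with fcp1-452 as circles and WT as squares, filled without nitrogen and open with nitrogen. Of these lists mating is the lowest without nitrogen in both strains and lies above 0 with it, and the histone list is above 0 without nitrogen and below 0 with it in both strains.

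Some of the named genes whose change differed most between the strains were high on the warm fcp1-452 array. mug9, named for its rise in meiosis, stood at 4.90 in fcp1-452 and -0.02 in WT at 37 °C, against 0.01 in fcp1-452 and 0.37 in WT at 26 °C. wtf13, of the family of meiotic drive genes, stood at 4.64 in fcp1-452 and 0.65 in WT at 37 °C, against 0.41 in fcp1-452 and 0.79 in WT at 26 °C. cgs1, the regulatory subunit gene of protein kinase A, stood at 2.80 in fcp1-452 and -0.82 in WT at 37 °C, against 0.11 in fcp1-452 and 0.08 in WT at 26 °C. In each case the warm fcp1-452 array was the highest of the 4 and the warm WT array was below its cool partner. ptc1, a protein phosphatase gene of the 2C type, changed by 3.69 in fcp1-452 and -0.28 in WT, pef1, a cyclin-dependent kinase gene, by 3.65 in fcp1-452 and 0.25 in WT, rba50 by 3.91 in fcp1-452 and 0.07 in WT and mug89 by 4.07 in fcp1-452 and 0.38 in WT.

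In the other direction map2 and map3 led, as given above. nmt1, a thiamine synthesis gene, stood at -3.44 in fcp1-452 and -0.24 in WT at 37 °C, against -0.15 in fcp1-452 and -0.13 in WT at 26 °C, with the warm fcp1-452 array far below the others. rrn11, a gene of RNA polymerase I transcription, changed by -2.83 in fcp1-452 and 0.20 in WT. The meiotic genes spn6, a septin of sporulation, mcp3 and mug45, and gst2, a glutathione S-transferase gene, were high in starved cells at 26 °C in both strains. spn6 stood at 0.20 in fcp1-452 and 3.33 in WT at 37 °C, against 2.75 in fcp1-452 and 2.93 in WT at 26 °C, and mcp3 at -1.05 in fcp1-452 and 3.05 in WT at 37 °C, against 1.42 in fcp1-452 and 1.81 in WT at 26 °C. gst2 stood at -1.12 in fcp1-452 and 2.34 in WT at 37 °C, against 0.78 in fcp1-452 and 0.88 in WT at 26 °C, and mug45 changed by -1.33 in fcp1-452 and 1.66 in WT. These 4 fell in fcp1-452, and in WT gst2 (adjusted p = 0.0487) and mug45 (adjusted p = 0.046) rose. Without the replicate block the strain difference was not called for cgs1, gst2, mug89, mug9, pef1, ptc1 and spn6 (adjusted p = 0.0774 to 0.411), and after quantile normalization not for mcp3 (adjusted p = 0.0554) and wtf13 (adjusted p = 0.0555). With the 8 arrays of set 1, in a model with no joint term for strain, nitrogen and temperature, it was called for none of the 16 genes named for it. The strain difference in that model is pooled over both media, so it is another estimate as well as another spread.

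The same step in temperature was then compared between cells without nitrogen and cells with nitrogen. The change differed for 1847 probe sets, 36.9% of those tested, 967 of them more positive and 880 more negative without nitrogen. With nitrogen 820 probe sets rose and 880 fell in the mean of both strains, 16.4% and 17.6%. Most shared starved changes were not called the same way with nitrogen. Of the 114 higher in both strains, 25 rose and 29 fell with nitrogen, and of the 44 lower in both, 3 rose and 16 fell. For the falls, 16 of 44 lay above the 17.6% of all probe sets that fell with nitrogen. The median mean change was 2.19 without nitrogen and -0.10 with nitrogen for the higher ones, and -1.89 without and -0.22 with it for the lower ones. The starved values of these probe sets chose them, so the gap between those medians is a description.

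Some shared rises went with a fall with nitrogen, and others with no called change there. aat1 changed by 3.18 in fcp1-452 and 3.0 in WT without nitrogen, against -4.02 in fcp1-452 and 0.12 in WT with it (difference of the mean changes 5.04 ± 0.28, adjusted p = 0.000871). On the set 1 arrays with nitrogen it stood at -3.79 in fcp1-452 and 0.54 in WT at 37 °C, against -0.01 and 0.01 at 26 °C in the same order of strains. Its low arrays were thus starved cells at 26 °C and fed fcp1-452 cells at 37 °C. frp1 changed by -3.41 in fcp1-452 and -1.92 in WT with nitrogen (difference 4.42 ± 0.13, adjusted p = 0.000312), and str3 by -4.14 in fcp1-452 and -0.91 in WT (difference 5.09 ± 0.87, adjusted p = 0.00964). ght3 changed by -2.48 in fcp1-452 and 0.57 in WT with nitrogen (difference 4.39 ± 0.33, adjusted p = 0.00174), and but1 by -2.56 in fcp1-452 and -0.62 in WT (difference 3.73 ± 0.25, adjusted p = 0.00131). The mean change with nitrogen was called below 0 for these 5 genes. It was not called for ght7, with -0.43 in fcp1-452 and 0.16 in WT (difference 3.96 ± 0.26, adjusted p = 0.00129), nor for grt1, with -0.02 in fcp1-452 and -0.12 in WT (difference 3.32 ± 0.27, adjusted p = 0.002). mug14 changed by -1.75 in fcp1-452 and 1.65 in WT with nitrogen, neither of them called (difference 4.56 ± 0.74, adjusted p = 0.00868).

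Among the shared falls the difference was -3.32 ± 0.14, adjusted p = 0.000366 for rgs1, -2.15 ± 0.18, adjusted p = 0.00226 for ste11 and -2.01 ± 0.18, adjusted p = 0.00251 for mei2. With nitrogen ste11 changed by 0.59 in fcp1-452 and -0.36 in WT, and mei2 by 0.06 in fcp1-452 and -0.04 in WT. For the mating list the difference was called below 0 for 21 of 38 and above 0 for 3, beside 17.6% and 19.3% of all probe sets. hop1, meu13 and ppk31 rose with nitrogen too, with mean changes there of 2.04 (adjusted p = 0.00412), 2.36 (adjusted p = 0.00593) and 1.86 (adjusted p = 0.00186). gal10 changed with nitrogen by 0.05 in fcp1-452 and 2.79 in WT, so that its called mean there of 1.42 (adjusted p = 0.00357) came from WT.

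A share of the shared rises with a gene name lay near chromosome ends, a pattern noticed after the values were seen and given as a description. Only 48 of the 114 shared-higher probe sets carried 1 gene name, and the position of the others is not known here. In the gene order of RefSeq assembly ASM294v3, which was used for names and order only, 2890 named genes of the array were placed on chromosomes I, II and III. Within 50 coding genes of a chromosome end lay 87 of them, or 3.01%, and 11 of the 46 shared-higher genes, or 23.9%. None of the 19 shared-lower genes lay there. On chromosome II 9 of 22 did, where 33 of 1100 placed genes lay so near an end. ght7, grt1, eno102, alr2, aat1, mug14 and frp1 stood in that order as the 13th, 15th, 19th, 34th, 35th, 38th and 47th coding gene of the chromosome. With a limit of 25 coding genes, 1% of all placed genes and 10.9% of the shared-higher genes lay near an end. With a limit of 100 the shares were 8.3% and 28.3%.

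At the other end of chromosome II lay gal10, 13 genes from the end, and tlh2, the helicase gene of the last position. tlh2 has near-identical copies at other ends and 4 probe sets here, which disagreed. Changes of 2.35 in fcp1-452 and 3.03 in WT and of 1.47 in fcp1-452 and 2.35 in WT passed the 2-fold limit in both strains, whereas 3.77 in fcp1-452 and 0.75 in WT and 2.56 in fcp1-452 and 0.02 in WT did not. A gene with any shared probe set was counted. On chromosome I ght3 and str3 were the 28th and 30th genes. Most genes near the ends were no shared rises: over the 87 genes the median change was 0.22 in fcp1-452 and 0.19 in WT. On chromosome I, with 15 of them, it was -1.04 in fcp1-452 and 0.19 in WT, on chromosome II, with 33, 0.46 in fcp1-452 and 0.46 in WT, and on chromosome III, with 39, 0.11 in fcp1-452 and -0.01 in WT. The plot by gene order shows both.

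**Figure D5:**
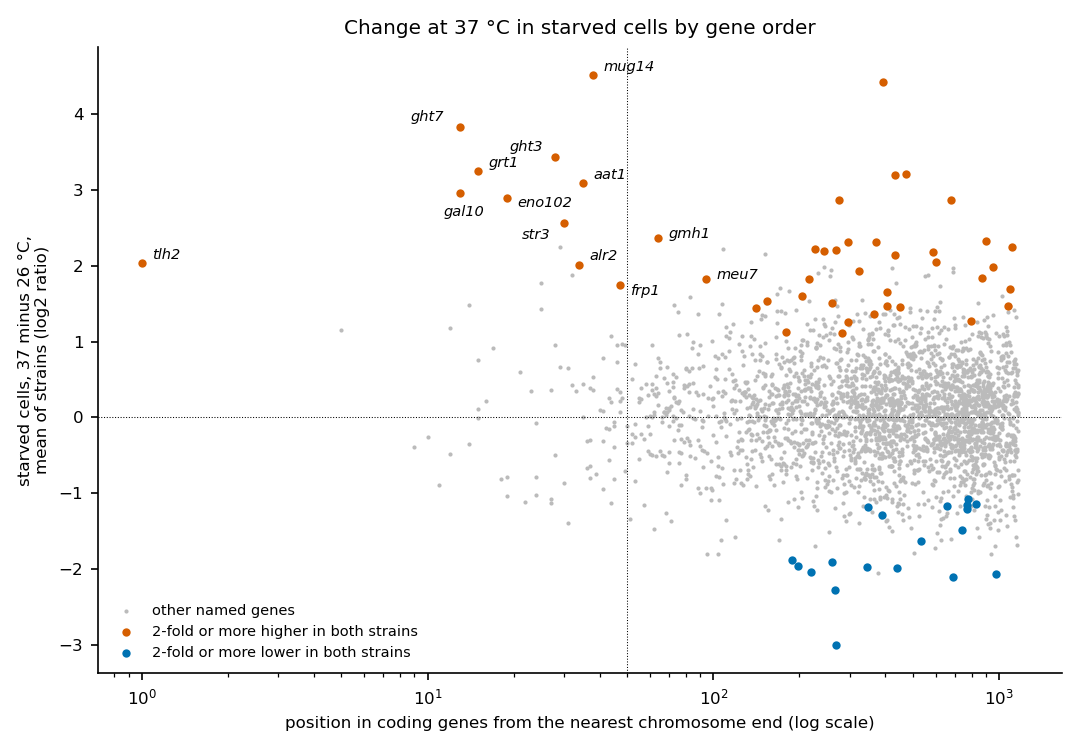
Mean change at 37 °C in starved cells (log2 ratio, vertical axis) of 2890 named genes against their place, counted in coding genes from the nearest chromosome end (log scale), with shared-higher and shared-lower genes coloured and the dotted line at 50 genes. 11 shared-higher genes and no shared-lower gene lie left of that line.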

How the data were processed

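Polyadenylated RNA of Schizosaccharomyces pombe was hybridised to 1-colour Affymetrix arrays, per the labels. The authors deposited linear ratios for 4999 probe sets on 16 arrays, with RMA as the tool per the submitters' processing notes (version not given). Within each set of 8 arrays every probe set had a median ratio of 1 (within 0.02), so no level was kept, and the lowest ratio was 0.01. Groups came from the titles, because the longer descriptions repeat 1 condition.

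The gene names came from the platform annotation (2917 probe sets with 1 gene, 20 with several, 2062 unnamed), of which 2914 were found in RefSeq ASM294v3 and 110 updated. A linear model of 8 group means was fitted to log2 ratios (limma 3.58.1, lmFit and eBayes, R 4.3.3). Each set 1 array with nitrogen matched replicate 1 of set 2 (SD of the log2 difference 0.0572 to 0.0742, against 0.214 to 0.381 for replicate 2), less than the spread between replicates, so both were averaged and counted as 1, which left 12 samples and 3 residual degrees of freedom. Replicate number was a block, with the starved arrays of set 1 placed in replicate 1, where the set 1 arrays with nitrogen were merged. The difference between replicates 1 and 2 correlated between all 6 pairs of groups at r = 0.640 to 0.870, but with only 2 numbers this is a hint from the data and not the design, and results are also given without the block. The code was tested on simulated data.

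Named genes were the 15 highest and 15 lowest shared and called probe sets by mean change, the 8 highest and 8 lowest by strain difference, the same by nitrogen difference among shared ones, up to 4 members of each of 37 lists by size of mean change, and fcp1. Further members of a list and further shared genes were named after their values were seen. Members and lists were chosen with earlier results of these data known. Alternatives were other sample sets, no block, quantile normalization, median centring, low ratios left out, a trended robust fit and leaving out arrays. Sequences were not used here, and no promoter motif was searched.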

Additional observations from a re-analysis of the deposited data

Results flagged for a closer look

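The change at 37 °C without nitrogen differed between the strains for 1703 probe sets, and it differed between cells without and with nitrogen for 1847. The following named genes are those tested differences, each in log2. The fcp1-452 change exceeded the WT change by 5.27 for mug9, 4.37 for wtf13 and 3.97 for ptc1. The excess was 3.83 for rba50, 3.68 for mug89 and 3.67 for mam2. It was 3.59 for cgs1, 3.40 for pef1 and 3.31 for atf21. The fcp1-452 change minus the WT change was -5.32 for map2, -3.70 for mcp3, -3.36 for gst2 and -3.18 for nmt1. For rrn11 it was -3.03, for mug45 -2.98, for spn6 -2.95 and for map3 -2.82. Among shared changes it was -2.78 for ght7, -2.01 for grt1 and -1.49 for eno102, which rose in both strains. Among shared falls it was -2.19 for rgs1, -1.99 for msa1, -1.37 for ppk33 and -1.18 for cdc25.

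The mean change without nitrogen minus that with nitrogen was 5.09 for str3, 5.04 for aat1, 4.56 for mug14 and 4.42 for frp1. For ght3 this difference was 4.39, for ght7 3.96, for but1 3.73 and for grt1 3.32. It was -3.32 for rgs1, -2.50 and -2.68 for the probe sets of mfm1, and -2.32 for ppk33. It was -2.18 for lsd90, -2.15 for ste11, -2.03 for mam3 and -2.01 for mei2.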

How the results depend on the processing

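The number of calls depended strongly on the samples and terms in the model. With the 8 arrays of set 1 and no joint term for strain, nitrogen and temperature, which pools the strain difference over both media, the counts were 407 for the mean starved change, 14 for the strain difference, 87 for the nitrogen difference and 77 for the change with nitrogen (main count 1700), and with the 4 starved arrays alone the mean change had 108. Without the replicate block the counts were 809 for the mean starved change, 1308 for fcp1-452, 20 for WT, 225 for the strain difference, 325 for the nitrogen difference and 377 with nitrogen. Quantile normalization gave 1707 for fcp1-452 and 429 for the strain difference. An array left out below means 1 of the 12 merged samples, and replicate 1 with nitrogen averages 2 arrays. Without a starved array the other strain's change from the main fit was taken, with no new fit. Leaving out 1 array at a time gave 155 to 3202 for the mean starved change, where 155 is WT alone (without either starved fcp1-452 array) and 2845 fcp1-452 alone, and 2430 to 3575 for fcp1-452. Leaving out an array gave 59 to 684 for WT, 1108 to 2751 for the strain difference, 996 to 2826 for the nitrogen difference and 613 to 2642 with nitrogen; the highest counts were those without 1 of the fcp1-452 replicates with nitrogen at 37 °C. The shared count of 158 was 460 at 1.5-fold and 68 at 3-fold. The 31 mean changes, 16 strain differences and 16 nitrogen differences chosen by the naming rule kept their direction under these alternatives. This supports nothing. For the mean changes and the strain differences, most alternatives take the same difference of the 4 starved arrays and change only its spread. The starved part of the nitrogen differences is also the same in most alternatives. Strain and nitrogen differences were chosen as the largest each way, the nitrogen ones among shared changes. Except for fcp1, these mean changes were chosen as going the same way in both strains, so 1 strain alone could not reverse them. Other genes named in the text were not rerun, and in WT alone the mean rises of hsp10 and rsv1 had the other sign (-0.16 and -0.03). Of the 31 mean changes, 5 lost their call without the replicate block, as did 7 of 16 strain differences and 2 of 16 nitrogen differences, and in the set 1 model all 16 strain differences and 2 nitrogen differences did. The causes were not tested. The planned search for promoter motifs was not run. With 1 array a starved group the number of arrays limits precision, and signal over background is not known from ratios.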
